A study of Rattus norvegicus with 8 samples.

Results

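The messenger RNA of rat dental epithelial cells overexpressing AmeloD was compared here with that of Control cells in the libraries that carry the label TGF. All 4 libraries came from SF2, an epithelial line of the cervical loop of the mandibular incisor, and were labelled AmeloD pCMV6, AmeloD pCMV6.ODAM, Control pCMV6 and Control pCMV6.ODAM. AmeloD is a transcription factor of the basic helix-loop-helix family found in tooth epithelium, encoded by Ascl5, and pCMV6.ODAM names the plasmid label with Odam, the gene of odontogenic ameloblast-associated protein. What TGF and the other label, N, stand for, how long the cells were treated, what the Control cells carry and whether a line is 1 clone are not stated by the labels. Each combination had 1 library, so the 2 plasmid labels served as the 2 libraries of a genotype and were paired by plasmid. The spread was estimated over all 8 libraries, those with the label N included. The p values measure only the spread between these 8 libraries, which nothing in the labels places in separate cultures. Genes at 1 CPM (reads scaled to a common library total) or more in at least 2 of the 4 TGF libraries were taken, which gave 7103 of the 30240 genes of the deposited table.

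SF2 cells stand for the dental epithelium that supplies the enamel-secreting ameloblasts. In stratified epithelia such as epidermis and oral mucosa, proliferating basal cells stop dividing and make keratins, small proline-rich proteins and other precursors that transglutaminases crosslink into a cornified envelope. Transforming growth factor beta, for which TGF is a common short name, acts through receptor kinases and SMAD proteins, and in epithelial cells it is known for slowing growth and inducing matrix genes. Basic helix-loop-helix factors bind the E-box, written CANNTG.

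The 4 TGF libraries held 10823522 to 17775226 reads, of which 1810326 to 2854134 lay in the table. The AmeloD libraries were the shallower, with 10823522 and 13668736 reads against 17775226 and 15388542 in Control. The 3 reads that a count of 0 can still allow were 0.169 to 0.284 CPM over the 8 libraries, a limit for counting error only. Ascl5 had 0 reads in every library, so its mRNA gave no check of the AmeloD label. The reason for the 0 was not tested. Odam was at 0 and 0.219 CPM in AmeloD and at 0 and 1.10 CPM in Control, with pCMV6 first and pCMV6.ODAM second, as in all values that follow. All 7 epithelial markers found in the table were read, Krt5, Krt17, Cdh1 and Sfn among them. Their summed level was 1018 and 964 CPM in AmeloD and 640 and 690 CPM in Control, higher in AmeloD, and its part in the other results was not tested. Of the 8 fibroblast markers 4 were at 0 reads, namely Dcn, Lum, Thy1 and Pdgfrb, and the sum of the 8 was 0.113 to 1.49 CPM. Of the leukocyte markers 5 of 7 were at 0 reads, of the endothelial ones 3 of 5, and of the odontoblast and bone ones 3 of 5. The first principal component of the 4 libraries placed the genotypes apart and took up 55.0% of the variance.

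Genes of the cornified envelope were among those higher in AmeloD, as were several keratins and chaperones of the endoplasmic reticulum, while Igfbp5, Mt1 and some genes of glycolysis and the hypoxia response were lower. In all 369 of the 7103 genes passed the test, which is 5.19%. Of these 257 (3.62% of the genes tested) were higher in AmeloD and 112 (1.58%) were lower. These shares are the ones to set beside the counts of every gene list below, and in a short list 1 call is a large share. Lists and members were chosen with earlier results of these data known. The counts therefore describe the lists and are no test of them. Differences are AmeloD minus Control in log2(CPM + 1), given ± SE, a scale that understates the change of low genes, and adjusted p values are from limma over the 7103 genes. The rises had a median of 1.0 log2 units and the falls one of -0.96, and 128 rises and 46 falls exceeded 1 log2 unit. The median over all genes tested was 0.05. Both AmeloD libraries lay on one side of both Control libraries for 368 of the 369 genes, where 25.9% of all genes tested had both AmeloD libraries above and 17.7% had both below. The exception was Cxcl1, so for every other called gene named here the 2 genotypes did not overlap. In such bulk libraries fewer cells of a kind and less RNA per cell cannot be told apart. The share of calls that were rises was 69.6%, and it was 58.3% with TMM scaling, 56.8% with medians set equal, 59.8% with edgeR and 55.4% with DESeq2. The number of calls fell to 148 without AmeloD pCMV6.ODAM, to 210 without Control pCMV6.ODAM and to 143 without Control pCMV6. Among genes under 3 CPM 3.50% were called, and among those at 100 CPM or more 15.0%, so that a low gene needed a larger difference, of at least 0.86 against 0.44. Some called genes lay under 1 CPM in both libraries of 1 genotype and entered the test only through the other. Ccnd2, Smo, Zeb2, Fosl1, Cldn3, Dsc2, Fhl1, Krt78 and Il1a were among them. Where 1 CPM was required in all 4 TGF libraries, 260 of 5620 genes were called. Of the 369 calls 75 stayed with every 1 library left out and 294 did not, and 255 ended with no filter on low values, where 17287 genes were tested. For each called gene described here whose call ended with a library left out, those libraries are given in brackets, as TGF libraries unless N is written, with the highest adjusted p of such fits and then any other setting that ended it.

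**Figure D1:**
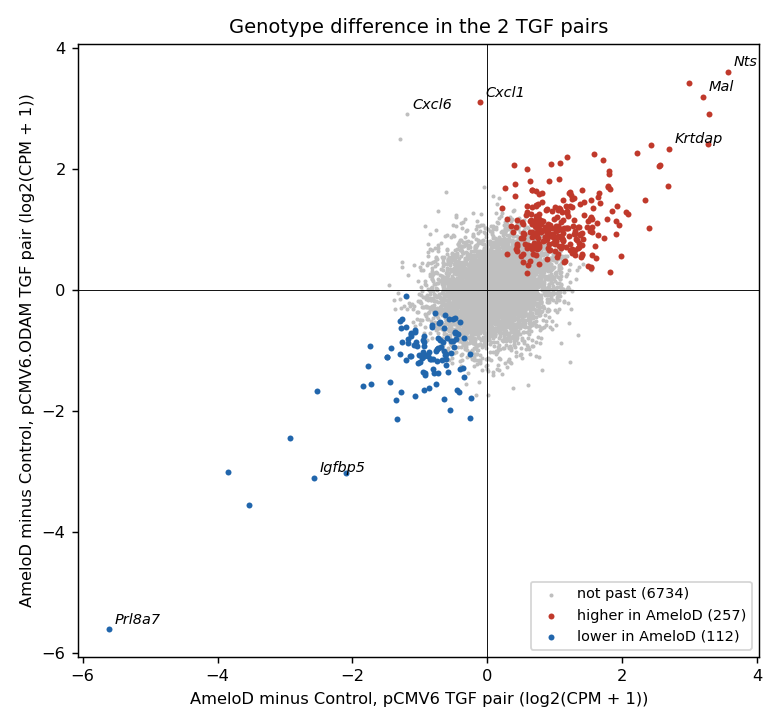
Each point is 1 of the 7103 genes, with its AmeloD minus Control difference in log2(CPM + 1) for the pCMV6 pair on the horizontal axis and for the pCMV6.ODAM pair on the vertical axis; red and blue points passed the test. The called genes lie at the upper right and lower left, except Cxcl1, which lies near 0 in the pCMV6 pair.

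Of the 19 tested genes of the cornified envelope, the crosslinked protein shell of keratinising cells, 13 were higher in AmeloD, 0 were lower and 6 did not pass. The median difference of the 19 was 1.17, beside 0.05 over all genes tested. Krtdap, named for its link to keratinocyte differentiation (ENSRNOG00000062262, chromosome 1, 86038437 to 86041455, mRatBN7.2), was at 68.6 and 82.9 CPM in AmeloD and 9.73 and 15.7 CPM in Control. It rose by 2.52 ± 0.17 (adjusted p = 5.71e-12), and both pairs showed the difference. Cnfn, which encodes cornifelin (ENSRNOG00000020530, chromosome 1, 80951600 to 80953747), was at 376 and 366 CPM in AmeloD and 58.1 and 111 CPM in Control. The rise was 2.20 ± 0.17 (adjusted p = 4.78e-11), or 4.58-fold on the CPM + 1 scale, and the 2 AmeloD libraries were nearly equal while the Control libraries differed from each other by more. Sprr1a encodes a small proline-rich envelope precursor (ENSRNOG00000024028, chromosome 2, 178055096 to 178057063) and was at 93.8 and 96.1 CPM in AmeloD and 15.2 and 22.6 CPM in Control, a rise of 2.29 ± 0.18 (adjusted p = 4.78e-11). Lce3d, a late cornified envelope gene (ENSRNOG00000067521, chromosome 2, 178550956 to 178551252), was at 196 and 191 CPM in AmeloD and 56.1 and 57.6 CPM in Control and rose by 1.75 ± 0.15 (adjusted p = 6.25e-10). Tgm1, the transglutaminase that crosslinks these precursors, was at 18.0 and 15.2 CPM in AmeloD and 6.30 and 5.07 CPM in Control, a rise of 1.40 ± 0.21 (adjusted p = 3.52e-05). The other members that rose were Sprr3, Lce3e, Loricrin, Cdsn, Sbsn, Dsg1, Crct1 and Dmkn, with differences from 1.06 for Dsg1 to 1.92 for Cdsn. The members that did not pass were Sprr1b (0.67), Sprr2d (0.41), Evpl (0.17), Ppl (0.72), Krt10 (-0.03) and Scel (0.78). Without Control pCMV6 the number of members that rose was 8. The calls of some members ended with a library left out, namely Sprr3 (Control pCMV6, adjusted p up to 0.0935), Loricrin (AmeloD pCMV6.ODAM, AmeloD pCMV6 or Control pCMV6, adjusted p up to 0.142, also with no filter), Sbsn (Control pCMV6, adjusted p up to 0.0901), Dsg1 (AmeloD pCMV6, Control pCMV6, Control pCMV6 N or Control pCMV6.ODAM N, adjusted p up to 0.60, also with no filter, DESeq2 and no plasmid term) and Dmkn (Control pCMV6, adjusted p up to 0.171, also with no filter). Genes of the Sprr and Lce families are close copies of each other, and reads shared among them cannot be assigned with certainty.

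The promoters of the 4 envelope genes with the largest rises at a mean of 10 CPM or more are given because their mRNAs moved together. Each is the 250 bases before the start site that RefSeq lists for the gene in GRCr8, 5' to 3' on the gene's own strand, and capitals mark CANNTG, the E-box, and TGANTCA, the site of AP-1 factors. Both motifs read the same on either strand, and they did not overlap.
Krtdap: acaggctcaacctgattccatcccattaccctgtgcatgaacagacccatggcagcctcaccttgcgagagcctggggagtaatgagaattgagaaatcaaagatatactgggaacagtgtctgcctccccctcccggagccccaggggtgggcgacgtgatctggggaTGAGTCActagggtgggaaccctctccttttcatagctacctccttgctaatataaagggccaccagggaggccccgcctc
Cnfn: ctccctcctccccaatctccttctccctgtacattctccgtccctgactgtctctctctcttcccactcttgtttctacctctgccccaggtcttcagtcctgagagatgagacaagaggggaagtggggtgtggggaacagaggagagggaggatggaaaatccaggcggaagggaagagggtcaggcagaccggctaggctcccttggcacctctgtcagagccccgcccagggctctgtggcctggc
Sprr1a: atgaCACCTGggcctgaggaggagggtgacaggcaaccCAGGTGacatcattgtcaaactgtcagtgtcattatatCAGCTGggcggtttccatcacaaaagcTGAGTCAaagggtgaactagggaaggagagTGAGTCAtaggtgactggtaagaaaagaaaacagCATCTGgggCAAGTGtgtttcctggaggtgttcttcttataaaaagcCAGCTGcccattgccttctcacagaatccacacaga
Lce3d: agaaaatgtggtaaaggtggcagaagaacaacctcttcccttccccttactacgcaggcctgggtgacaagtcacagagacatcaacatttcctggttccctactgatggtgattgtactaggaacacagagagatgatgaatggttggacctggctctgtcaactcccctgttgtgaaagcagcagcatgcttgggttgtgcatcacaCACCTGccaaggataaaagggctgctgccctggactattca
The Krtdap window is chr1:95165612-95165861 on the plus strand and the Cnfn window chr1:90081557-90081806 on the minus strand. The Sprr1a window is chr2:180752626-180752875 on the minus strand and the Lce3d window chr2:181285139-181285388 on the plus strand. Sprr1a held 6 CANNTG and 2 TGANTCA, Lce3d held 1 CANNTG, Krtdap held 1 TGANTCA that begins at -81, and Cnfn held neither in this window. Of the 27457 promoters of this length that RefSeq lists, 65.2% held CANNTG and 6.33% held TGANTCA. A match is a run of letters and not a measured binding site.

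Among called genes at a mean of 10 CPM or more, the largest rises were those of Ccl6, Mal and Slpi. Mal, a lipid-raft protein of apical transport (ENSRNOG00000015445, chromosome 3, 114864378 to 114888136), was at 19.6 and 27.7 CPM in AmeloD and 1.24 and 2.14 CPM in Control, and its rise was 3.20 ± 0.24 (adjusted p = 3.54e-11). Ccl6, a chemokine (ENSRNOG00000030021, chromosome 10, 68380188 to 68384001), was at 13.7 and 27.6 CPM in AmeloD and 0.844 and 1.69 CPM in Control, with its AmeloD libraries further apart than those of Mal, and rose by 3.20 ± 0.26 (adjusted p = 1.86e-10). Slpi, a secreted inhibitor of serine proteases (ENSRNOG00000046699, chromosome 3, 153082369 to 153084453), was at 18.9 and 18.4 CPM in AmeloD and 1.07 and 2.66 CPM in Control and rose by 2.84 ± 0.24 (adjusted p = 4.92e-10). Cryab, the small heat shock protein alpha-B crystallin, was at 227 and 189.9 CPM in AmeloD and 57.8 and 90.3 CPM in Control, a rise of 1.51 ± 0.16 (adjusted p = 9.06e-08). Serpinb3a, a cytosolic serpin, was at 14.2 and 27.6 CPM in AmeloD and 6.19 and 5.72 CPM in Control and rose by 1.59 ± 0.26 (adjusted p = 1.35e-04), a call that DESeq2 did not make (adjusted p = 0.0545). Among the falls, Lgals1, the gene of galectin-1, was at 213 and 172 CPM in AmeloD and 393 and 369 CPM in Control, with a difference of -0.99 ± 0.14 (adjusted p = 9.16e-06). Arl4a, a small GTPase of the ARF family, was at 8.59 and 10.1 CPM in AmeloD and 17.8 and 23.3 CPM in Control and fell by 1.05 (adjusted p = 0.00133). Ptgr1, prostaglandin reductase, was at 6.10 and 8.63 CPM in AmeloD and 13.8 and 16.5 CPM in Control, a difference of -0.96 ± 0.20 (adjusted p = 0.00198), and Nolc1, a nucleolar phosphoprotein, was at 11.5 and 11.3 CPM in AmeloD and 28.9 and 16.2 CPM in Control, a difference of -0.87 ± 0.21 (adjusted p = 0.00841). The 2 Control libraries of Nolc1 stood apart from each other, and both lay above the AmeloD ones. With 1 library left out, the calls that ended were those of Arl4a (Control pCMV6.ODAM, adjusted p up to 0.0872) and Nolc1 (AmeloD pCMV6 or Control pCMV6, adjusted p up to 0.366, also with no filter).

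**Figure D2:**
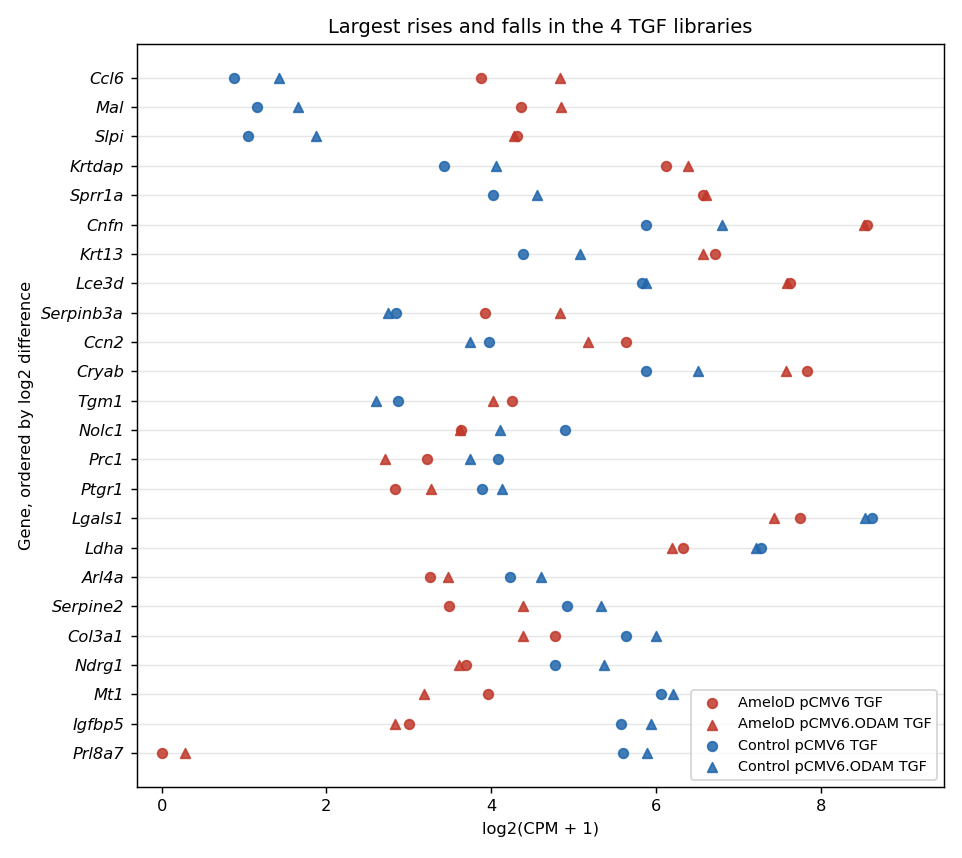
The 12 largest rises and 12 largest falls at a mean of 10 CPM or more, with log2(CPM + 1) of each TGF library on the horizontal axis, AmeloD in red, Control in blue, circles for pCMV6 and triangles for pCMV6.ODAM. No gene shown has an AmeloD point between its 2 Control points, and Prl8a7 has AmeloD points at 0 and 0.219 CPM.

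Keratins form the intermediate filaments of epithelia, and 6 of the 10 tested were higher in AmeloD, 1 was lower and 3 did not pass (median 0.68). Krt13, the keratin of differentiating mucosal epithelium, was at 104 and 93.9 CPM in AmeloD and 19.9 and 32.9 CPM in Control and rose by 1.91 ± 0.19 (adjusted p = 2.61e-08). Krt7, of simple and glandular epithelia, was at 215 and 291 CPM in AmeloD and 110.3 and 117 CPM in Control, a rise of 1.13 ± 0.16 (adjusted p = 1.08e-05). Krt17, a keratin of basal and appendage epithelium, was at 511 and 495 CPM in AmeloD and 308 and 333 CPM in Control and rose by 0.65 ± 0.13 (adjusted p = 0.00172). Krt16 rose by 0.44 ± 0.13 (adjusted p = 0.0472), Krt78 by 1.20 ± 0.28 (adjusted p = 0.00794) and Krt80 by 1.14 ± 0.26 (adjusted p = 0.00725). The listed symbol was Krt14, which named no measured gene and was matched to Krt16 as an older symbol. Whether those reads are of Krt14 or Krt16 is therefore not certain. Krt8, a keratin of simple epithelium, went the other way. It was at 4.99 and 4.02 CPM in AmeloD and 8.55 and 10.3 CPM in Control, with a difference of -0.92 ± 0.24 (adjusted p = 0.0158). Krt5 (0.42), Krt6a (0.67) and Krt23 (0.68) did not pass. Without AmeloD pCMV6.ODAM or Control pCMV6 the number of keratins that rose was 3. The calls that ended with 1 library left out were those of Krt16 (AmeloD pCMV6.ODAM, AmeloD pCMV6, Control pCMV6, Control pCMV6 N or Control pCMV6.ODAM N, adjusted p up to 0.560, also with a pseudocount of 4, no filter, TMM scaling, equal medians, edgeR, DESeq2 and no plasmid term), Krt17 (Control pCMV6, adjusted p up to 0.114, also with no filter), Krt78 (AmeloD pCMV6.ODAM or Control pCMV6.ODAM, adjusted p up to 0.214, also with no filter), Krt80 (AmeloD pCMV6.ODAM or Control pCMV6, adjusted p up to 0.142, also with no filter) and Krt8 (AmeloD pCMV6.ODAM, Control pCMV6.ODAM or Control pCMV6, adjusted p up to 0.242, also with no filter).

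Of 17 tested genes of tight and adherens junctions, which seal and join epithelial cells, 3 (17.6%) were higher and 0 lower (median 0.34). Of all genes tested 3.62% were higher. The 3 rises were of Cldn3, Nectin2 and Mal, the last a lipid-raft protein of apical transport that the list held and not itself a junction protein. Cldn3, a claudin, was at 4.43 and 7.17 CPM in AmeloD and 0.169 and 0.715 CPM in Control, with all AmeloD values above the Control ones, and rose by 2.23 ± 0.27 (adjusted p = 9.33e-07). Nectin2, an adhesion molecule, was at 4.53 and 4.17 CPM in AmeloD and 1.35 and 2.27 CPM in Control and rose by 0.95 ± 0.28 (adjusted p = 0.0387). The cadherin gene Cdh1 differed by 0.52 and Cldn1 by 0.70, neither past the test. Of 9 tested genes of desmosomes, the spot junctions that anchor keratins, 1 (11.1%) was higher (median 0.29). It was the desmocollin Dsc2, at 3.05 and 3.80 CPM in AmeloD and 0.731 and 0.845 CPM in Control, a rise of 1.30 ± 0.27 (adjusted p = 0.00269). Of the 18 tested genes of basement membrane and hemidesmosomes 0 passed (median -0.07). The most abundant of them, the integrin gene Itgb1, was at 170.3 and 164 CPM in AmeloD and 171 and 180.2 CPM in Control, a difference of -0.07 (95% interval -0.36 to 0.22). Leaving out 1 library ended the calls of Nectin2 (AmeloD pCMV6.ODAM, AmeloD pCMV6, Control pCMV6, Control pCMV6 N or Control pCMV6.ODAM N, adjusted p up to 0.452, also with no filter and DESeq2) and Dsc2 (AmeloD pCMV6.ODAM or Control pCMV6, adjusted p up to 0.0730, also with no filter). Desmosome rises numbered 0 without AmeloD pCMV6.ODAM or Control pCMV6, 2 without AmeloD pCMV6 and 3 without Control pCMV6.ODAM.

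In the list of dental epithelium and its progenitors 3 of 15 tested genes were higher and 1 was lower (median 0.42). This median was not shared by the pairs, being 0.60 in the pCMV6 pair and 0.0006 in the pCMV6.ODAM pair. Besides Krt16 and Krt17 the rise was of Sfn, the epithelial 14-3-3 protein sigma, at 199.7 and 229 CPM in AmeloD and 137 and 151 CPM in Control, with a difference of 0.57 ± 0.14 (adjusted p = 0.00924). Krt16 is the gene that the keratin list reached through the symbol Krt14. The fall was of Igfbp5. Of its transcription factors, Tp63 differed by -0.03 and Sp6 by 0.57, neither past the test. Only 4 of the 24 genes of enamel matrix and ameloblasts found in the table were tested, and 0 passed. Fam83h, required for enamel mineralisation, was at 8.41 and 6.44 CPM in AmeloD and 5.40 and 6.95 CPM in Control, a difference of 0.23 (95% interval -0.27 to 0.73), and Fam20c, the kinase of secreted mineral-tissue proteins, differed by 0.56 (95% interval 0.03 to 1.08). Leaving out 1 library ended the call of Sfn (AmeloD pCMV6.ODAM, Control pCMV6.ODAM or Control pCMV6, adjusted p up to 0.112, also with no filter and edgeR). Without Control pCMV6 0 genes of the list of dental epithelium rose, and without AmeloD pCMV6.ODAM 1 did.

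Among protease inhibitors 4 of 19 tested genes were higher and 1 was lower (median 0.20). With Slpi these were Timp2, an inhibitor of matrix metalloproteinases, at 20.3 and 22.7 CPM in AmeloD and 7.59 and 12.2 CPM in Control and a rise of 1.08 ± 0.21 (adjusted p = 0.00161), and Serpinb2, which inhibits urokinase, at 100.1 and 113 CPM in AmeloD and 74.0 and 71.0 CPM in Control and a rise of 0.55 ± 0.15 (adjusted p = 0.0246). The remaining rise was of Serpinb12 (0.94). Serpine2, the secreted inhibitor protease nexin-1 (ENSRNOG00000015461, chromosome 9, 81124804 to 81188826), was lower, at 10.3 and 19.8 CPM in AmeloD and 29.3 and 39.3 CPM in Control, with a difference of -1.19 ± 0.21 (adjusted p = 3.18e-04). Among calcium-binding S100 proteins and annexins 3 of 16 rose and 1 fell (median 0.16). Anxa1, an anti-inflammatory annexin, was at 145 and 152 CPM in AmeloD and 64.0 and 74.5 CPM in Control and rose by 1.09 ± 0.16 (adjusted p = 1.60e-05). S100a10 rose by 0.86 ± 0.17 (adjusted p = 0.00140) and S100a1 by 1.02 ± 0.27 (adjusted p = 0.0223), while Anxa8, at 43.3 and 45.6 CPM in AmeloD and 60.8 and 74.2 CPM in Control, differed by -0.58 ± 0.16 (adjusted p = 0.0298). Calls that ended with 1 library left out were those of Timp2 (Control pCMV6, adjusted p up to 0.154), Serpinb2 (AmeloD pCMV6.ODAM, Control pCMV6.ODAM, Control pCMV6, Control pCMV6 N or Control pCMV6.ODAM N, adjusted p up to 0.400, also with no filter, TMM scaling and edgeR), Serpinb12 (AmeloD pCMV6.ODAM, AmeloD pCMV6, Control pCMV6, Control pCMV6 N or Control pCMV6.ODAM N, adjusted p up to 0.621, also with no filter and DESeq2), S100a10 (Control pCMV6, adjusted p up to 0.0565), S100a1 (any TGF library, adjusted p up to 0.196, also with no filter and DESeq2) and Anxa8 (any TGF library, Control pCMV6 N or Control pCMV6.ODAM N, adjusted p up to 0.295, also with no filter). Without Control pCMV6 1 gene of the S100 and annexin list rose. Inhibitors that rose numbered 2 without AmeloD pCMV6.ODAM and 1 without Control pCMV6.

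Of 16 tested targets of the transforming growth factor beta pathway 1 was higher and 1 lower, which is 12.5% called beside 5.19% of all genes tested (median 0.11), and of 12 tested receptors, ligands and signal transducers 0 passed (median -0.02). The target that rose was Ccn2, connective tissue growth factor (ENSRNOG00000015036, chromosome 1, 20802199 to 20805734). It was at 48.8 and 35.1 CPM in AmeloD and 14.7 and 12.3 CPM in Control in the TGF libraries, a rise of 1.55 ± 0.22 (adjusted p = 1.69e-05). In the N libraries Ccn2 was at 7.66 and 4.45 CPM in AmeloD and 1.31 and 1.42 CPM in Control, so the level was low there and the genotype difference had the same direction. Tsc22d1, a leucine zipper protein first found as a TGF-beta-stimulated gene, was at 36.8 and 31.6 CPM in AmeloD and 61.7 and 62.2 CPM in Control and differed by -0.84 ± 0.17 (adjusted p = 0.00171). Pmepa1, a feedback inhibitor, differed by -0.08 and did not pass the test. Inhba, which encodes a subunit of activin, was at 43.1 and 48.4 CPM in AmeloD and 45.3 and 38.2 CPM in Control, a difference of 0.13 (95% interval -0.26 to 0.52), and Fst, whose product binds activin, at 90.5 and 82.8 CPM in AmeloD and 109 and 112 CPM in Control, a difference of -0.35 (95% interval -0.67 to -0.03). Of the 15 tested AP-1 and ERK-responsive genes 1 (6.67%) was lower, beside 1.58% of all genes tested. It was Fosl1, a FOS-family subunit of AP-1, at 0.277 and 0.585 CPM in AmeloD and 3.26 and 2.01 CPM in Control, a difference of -1.33 ± 0.28 (adjusted p = 0.00242). Leaving out 1 library ended the calls of Tsc22d1 (Control pCMV6.ODAM, adjusted p up to 0.0722) and Fosl1 (AmeloD pCMV6 or Control pCMV6, adjusted p up to 0.109, also with no filter).

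Of the 13 tested genes of the interstitial matrix 2 were lower and 0 higher (median -0.28). This median was not shared by the pairs, being 0.06 in the pCMV6 pair and -0.49 in the pCMV6.ODAM pair. Col3a1, the chain of fibrillar collagen III (ENSRNOG00000003357, chromosome 9, 47374593 to 47410547), was at 26.4 and 19.8 CPM in AmeloD and 48.8 and 63.0 CPM in Control, with a difference of -1.24 ± 0.19 (adjusted p = 3.52e-05). Col5a2, a chain of collagen V, was at 7.11 and 5.93 CPM in AmeloD and 11.6 and 12.9 CPM in Control and differed by -0.82 ± 0.22 (adjusted p = 0.0247). Fibronectin, Fn1, differed by -0.29 and did not pass. Of the 4 tested mesenchymal markers 1 was lower, Zeb2, a repressor of epithelial genes, at 0.370 and 0.439 CPM in AmeloD and 1.80 and 2.34 CPM in Control, a difference of -1.12 ± 0.26 (adjusted p = 0.00743). Zeb2 reached 1 CPM only in Control, so it was tested through the genotype where it is high. Vim, the gene of vimentin, differed by -0.17 and Snai2 by -0.03, neither past the test. The summed fibroblast markers were at most 1.49 CPM in any library and did not separate the genotypes. Leaving out 1 library ended the calls of Col5a2 (any TGF library, adjusted p up to 0.294, also with no filter) and Zeb2 (AmeloD pCMV6.ODAM, AmeloD pCMV6 or Control pCMV6.ODAM, adjusted p up to 0.121, also with no filter).

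Igfbp5, whose product binds insulin-like growth factors (ENSRNOG00000017206, chromosome 9, 74448382 to 74465156), was at 7.02 and 6.15 CPM in AmeloD and 46.6 and 60.5 CPM in Control. It was 7.15-fold lower in AmeloD on the CPM + 1 scale, a difference of -2.84 ± 0.22 (adjusted p = 4.78e-11), and the groups lay far apart. Of the 7 tested genes of the insulin-like growth factor system it was the 1 that fell, and Htra1, a secreted serine protease that cleaves such binding proteins, was the 1 that rose, from 58.1 and 67.6 CPM in Control to 99.3 and 91.7 CPM in AmeloD (0.60 ± 0.16, adjusted p = 0.0204). Igfbp3 differed by -0.33 and Igf1r by 0.15. Leaving out 1 library ended the call of Htra1 (AmeloD pCMV6.ODAM, AmeloD pCMV6 or Control pCMV6, adjusted p up to 0.380, also with no filter).

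Metallothioneins bind zinc and copper, and both tested ones were lower in AmeloD. Mt1 (ENSRNOG00000025764, chromosome 19, 10826032 to 10827049) was at 14.6 and 8.12 CPM in AmeloD and 65.5 and 72.8 CPM in Control, a difference of -2.55 ± 0.20 (adjusted p = 4.78e-11), and Mt2A was at 2.59 and 1.61 CPM in AmeloD and 4.39 and 5.65 CPM in Control, a difference of -0.97 ± 0.25 (adjusted p = 0.0178). Hmox1, the oxidative stress-induced heme oxygenase, was at 1.48 and 1.83 CPM in AmeloD and 3.77 and 5.0 CPM in Control and differed by -1.02 ± 0.26 (adjusted p = 0.0158). These were the 3 falls among the 21 tested genes of metallothioneins and antioxidant defence, of which 0 rose and whose median was 0.06. Nqo1 (-0.25), Gclm (-0.15), Txnrd1 (0.18) and the peroxiredoxins did not pass. Metallothionein genes are close copies, so reads of the 2 cannot be told apart with certainty. With 1 library left out the calls ended of Mt2A (AmeloD pCMV6.ODAM, Control pCMV6.ODAM or Control pCMV6, adjusted p up to 0.399, also with no filter) and Hmox1 (any TGF library, adjusted p up to 0.212, also with no filter). Without Control pCMV6.ODAM or Control pCMV6 1 of the 3 falls of this list was called.

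Of the 13 tested genes of glycolysis 3 were lower and 0 higher, and 11 of the 13 differences lay below 0 (median -0.41). Ldha, the lactate dehydrogenase chain that makes lactate (ENSRNOG00000013009, chromosome 1, 97366021 to 97433472), was at 79.0 and 72.1 CPM in AmeloD and 154 and 148 CPM in Control, a difference of -0.99 ± 0.14 (adjusted p = 2.32e-05). Pgk1, phosphoglycerate kinase, was at 34.2 and 39.1 CPM in AmeloD and 61.2 and 60.4 CPM in Control and differed by -0.72 ± 0.16 (adjusted p = 0.00420). Gpi, glucose-6-phosphate isomerase, was at 12.7 and 10.2 CPM in AmeloD and 18.2 and 20.7 CPM in Control, a difference of -0.72 ± 0.19 (adjusted p = 0.0228). The glucose transporter gene Slc2a1 differed by -0.71, Tpi1 by -0.66 and Pkm by -0.33, none past the test. Among 15 tested genes of the hypoxia response 5 were lower and 1 was higher (median -0.27). Ndrg1, a stress-induced gene (ENSRNOG00000007393, chromosome 7, 98684487 to 98725880), was at 11.9 and 11.2 CPM in AmeloD and 26.3 and 40.3 CPM in Control, a difference of -1.42 ± 0.19 (adjusted p = 9.16e-06). Fam162a, of the mitochondrion, was at 3.33 and 5.27 CPM in AmeloD and 11.1 and 12.5 CPM in Control and differed by -1.30 ± 0.22 (adjusted p = 1.75e-04). Higd1a, a regulator of the respiratory chain, was at 302 and 273 CPM in AmeloD and 501 and 475 CPM in Control, a difference of -0.76 ± 0.14 (adjusted p = 5.89e-04). Hif1a (-0.84) and Mif (-0.47) were the other falls. Egln3, a prolyl hydroxylase that marks hypoxia-inducible factor for destruction, rose by 1.21 ± 0.26 (adjusted p = 0.00322), while Vegfa differed by -0.27. Calls that ended with 1 library left out were those of Pgk1 (AmeloD pCMV6 or Control pCMV6, adjusted p up to 0.0791), Gpi (AmeloD pCMV6.ODAM, Control pCMV6.ODAM or Control pCMV6, adjusted p up to 0.338, also with no filter), Higd1a (Control pCMV6, adjusted p up to 0.0661, also with no filter), Hif1a (AmeloD pCMV6.ODAM or Control pCMV6.ODAM, adjusted p up to 0.214, also with no filter), Mif (AmeloD pCMV6.ODAM, Control pCMV6.ODAM, Control pCMV6, Control pCMV6 N or Control pCMV6.ODAM N, adjusted p up to 0.393, also with no filter, edgeR, DESeq2 and no plasmid term) and Egln3 (AmeloD pCMV6.ODAM or Control pCMV6, adjusted p up to 0.0563). Without Control pCMV6 1 glycolytic gene was still called lower, and 3 hypoxia genes were called lower without AmeloD pCMV6.ODAM, Control pCMV6.ODAM or Control pCMV6.

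Among 24 tested genes of endoplasmic reticulum chaperones and stress 7 were higher and 0 lower (median 0.19). Sdf2l1, a resident component of the chaperone complex, was at 27.6 and 38.0 CPM in AmeloD and 11.6 and 15.1 CPM in Control and rose by 1.23 ± 0.20 (adjusted p = 9.07e-05). Hspa5, the chaperone BiP, was at 97.2 and 146 CPM in AmeloD and 56.9 and 64.1 CPM in Control, a rise of 0.97 ± 0.19 (adjusted p = 0.00135). Hsp90b1 rose by 0.85 ± 0.20 (adjusted p = 0.00678) and the calcium-binding chaperone Calr by 0.80 ± 0.19 (adjusted p = 0.00849), and the remaining rises were of Pdia6 (0.88), Creld2 (0.88) and Asns (0.76). The stress transcription factors Atf4 (-0.10), Ddit3 (-0.40) and Xbp1 (-0.01) did not pass. The count of rises in this list was 1 without AmeloD pCMV6.ODAM, 2 without Control pCMV6.ODAM and 1 without Control pCMV6. Calls ended on leaving out 1 library for Hspa5 (AmeloD pCMV6.ODAM or Control pCMV6, adjusted p up to 0.174, also with no filter and DESeq2), Hsp90b1 (AmeloD pCMV6.ODAM, Control pCMV6.ODAM or Control pCMV6, adjusted p up to 0.174, also with no filter), Calr (AmeloD pCMV6.ODAM, Control pCMV6.ODAM or Control pCMV6, adjusted p up to 0.185, also with no filter), Pdia6 (AmeloD pCMV6.ODAM, Control pCMV6.ODAM or Control pCMV6, adjusted p up to 0.531, also with no filter), Creld2 (any TGF library, adjusted p up to 0.248, also with no filter and DESeq2) and Asns (any TGF library, Control pCMV6 N or Control pCMV6.ODAM N, adjusted p up to 0.392, also with no filter, DESeq2 and no plasmid term). Of 21 tested cytosolic heat shock genes 2 were higher and 1 was lower (median -0.01). The rises were of Cryab and of Hspb1, a small heat shock protein, at 127 and 104 CPM in AmeloD and 56.9 and 75.7 CPM in Control (0.80 ± 0.16, adjusted p = 0.00198). The fall was of Hspe1, the mitochondrial co-chaperonin, with a difference of -0.52 ± 0.13 (adjusted p = 0.0152), and Hspa8 differed by 0.00. Calls that ended with 1 library left out were those of Hspb1 (AmeloD pCMV6 or Control pCMV6, adjusted p up to 0.203, also with no filter) and Hspe1 (AmeloD pCMV6.ODAM, AmeloD pCMV6 or Control pCMV6, adjusted p up to 0.312, also with no filter).

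Of 15 tested genes of interferon response and cytokines 7 were higher and 0 lower (median 0.81), and the pairs differed, with a median of 0.41 in the pCMV6 pair and 1.13 in the pCMV6.ODAM pair. Il1rn, the interleukin-1 receptor antagonist, was at 35.6 and 45.4 CPM in AmeloD and 15.1 and 21.8 CPM in Control and rose by 1.10 ± 0.19 (adjusted p = 2.53e-04). Nfkbia, the inhibitor of NF-kappa-B, was at 23.7 and 36.8 CPM in AmeloD and 15.3 and 8.45 CPM in Control, a rise of 1.30 ± 0.23 (adjusted p = 4.31e-04). Cxcl16, a membrane-bound chemokine, was at 41.6 and 56.3 CPM in AmeloD and 28.4 and 26.1 CPM in Control and rose by 0.81 ± 0.18 (adjusted p = 0.00607), and Ccl20, a chemokine of barrier epithelia, was at 4.25 and 5.85 CPM in AmeloD and 2.98 and 0.650 CPM in Control, a rise of 1.23 ± 0.30 (adjusted p = 0.0112). The other rises were of Irf7 (1.08), Il1a (1.05) and Cxcl1 (1.5). Il1a was at 2.03 and 3.29 CPM in AmeloD and 0.844 and 0.650 CPM in Control, so it was tested through the genotype where it is high. Of the interferon-response members Irf7 was the one that rose. Usp18 (-0.50), Ifi27 (0.22), B2m (0.31), Psmb8 (0.06) and Psmb9 (0.51) did not pass. Isg15, Ifit3 and Irf9, among those not tested, had 0 reads in the TGF libraries. Cxcl1, a neutrophil chemokine, was at 5.08 and 13.2 CPM in AmeloD and 5.57 and 0.650 CPM in Control, so its AmeloD and Control values overlapped. Its relative Cxcl6, at 90.7 and 194 CPM in AmeloD and 209 and 25.02 CPM in Control, spanned more within Control than between genotypes and did not pass. Cxcl1 and Cxcl6 were picked for their spread after their values were seen. Without AmeloD pCMV6.ODAM or Control pCMV6.ODAM 1 gene of this list was still called. Calls ended on leaving out 1 library for Nfkbia (AmeloD pCMV6.ODAM or Control pCMV6.ODAM, adjusted p up to 0.102, also with no filter and DESeq2), Cxcl16 (AmeloD pCMV6.ODAM, Control pCMV6.ODAM or Control pCMV6, adjusted p up to 0.337, also with no filter), Ccl20 (AmeloD pCMV6.ODAM or Control pCMV6.ODAM, adjusted p up to 0.484, also with no filter and DESeq2), Irf7 (AmeloD pCMV6.ODAM or Control pCMV6.ODAM, adjusted p up to 0.454, also with no filter and DESeq2), Il1a (AmeloD pCMV6.ODAM, Control pCMV6.ODAM or Control pCMV6, adjusted p up to 0.283, also with no filter) and Cxcl1 (AmeloD pCMV6.ODAM, Control pCMV6.ODAM, Control pCMV6 N or Control pCMV6.ODAM N, adjusted p up to 0.805, also with no filter, edgeR, DESeq2 and no plasmid term).

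Among 30 tested genes of the actin cytoskeleton 4 were higher and 0 lower (median 0.14). Fhl1, a LIM-domain protein (ENSRNOG00000000875, chromosome X, 134555479 to 134614928), was at 15.4 and 12.9 CPM in AmeloD and 0.675 and 0.845 CPM in Control, a rise of 3.10 ± 0.26 (adjusted p = 2.11e-10). Tpm1, a tropomyosin, was at 159.6 and 181 CPM in AmeloD and 73.0 and 63.9 CPM in Control and rose by 1.30 ± 0.17 (adjusted p = 4.18e-06). The cytoplasmic actin genes Actg1, at 13.95 and 15.2 CPM in AmeloD and 6.47 and 9.42 CPM in Control, and Actb, at 499 and 479 CPM in AmeloD and 344 and 349 CPM in Control, rose by 0.82 ± 0.21 and 0.50 ± 0.13 (adjusted p = 0.0187 and 0.0213). Cfl1 (-0.03), Vcl (0.05) and Myh9 (-0.15) did not pass. Leaving out 1 library ended the calls of Actg1 (AmeloD pCMV6.ODAM, AmeloD pCMV6 or Control pCMV6, adjusted p up to 0.323, also with no filter) and Actb (AmeloD pCMV6.ODAM or Control pCMV6, adjusted p up to 0.385, also with no filter, TMM scaling, equal medians, edgeR and no plasmid term), and the list had 2 rises without AmeloD pCMV6.ODAM or Control pCMV6.

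Of 9 tested G1 cyclins and inhibitors 1 was higher, Ccnd2, the cyclin D2 gene, at 1.85 and 2.05 CPM in AmeloD and 0.169 and 0.0650 CPM in Control (1.40 ± 0.26, adjusted p = 6.94e-04). Ccnd2 reached 1 CPM only in AmeloD, so it was tested through the genotype where it is high. Ccnd1 differed by 0.49 and Cdkn1b by -0.02. Of 21 tested genes of p53 and apoptosis 3 (14.3%) were higher, beside 3.62% of all genes tested, and 0 lower (median 0.20). Of their differences 17 lay above 0 and 4 below. Mdm2 (-0.16), Bax (0.02), Ccng1 (0.08), Sesn1 (-0.41), Phlda3 (0.39) and Gadd45a (0.47) were among those that did not pass. Fas, the death receptor, was at 11.9 and 13.7 CPM in AmeloD and 4.44 and 3.96 CPM in Control and rose by 1.41 ± 0.24 (adjusted p = 1.77e-04). Pmaip1, a BH3-only protein, rose by 1.28 ± 0.29 (adjusted p = 0.00679), and Bcl2l1, a survival gene of the BCL2 family, by 0.86 ± 0.26 (adjusted p = 0.0499). Of the 27 Hedgehog pathway genes found there, 6 reached the level to be tested, and 1 (16.7%) was higher, beside 3.62% of all genes tested. It was Smo, the signal-transducing receptor of the pathway, at 2.49 and 1.68 CPM in AmeloD and 0.506 and 0.455 CPM in Control, a rise of 1.05 ± 0.26 (adjusted p = 0.0136). Smo too reached 1 CPM only in AmeloD. Of 14 tested Wnt and Notch genes 2 were higher, and the count was 0 without AmeloD pCMV6.ODAM or Control pCMV6 and 1 without AmeloD pCMV6 or Control pCMV6.ODAM. Rises in the p53 list numbered 1 without AmeloD pCMV6 or Control pCMV6. Wnt7b, a ligand, was at 9.98 and 13.3 CPM in AmeloD and 4.11 and 4.87 CPM in Control and rose by 1.19 ± 0.25 (adjusted p = 0.00265), and the receptor Notch1 was at 11.1 and 11.3 CPM in AmeloD and 6.08 and 6.56 CPM in Control, a rise of 0.74 ± 0.21 (adjusted p = 0.0324). Hes1, a Notch target, differed by -0.35 and did not pass. The 2 rises were 14.3% of the Wnt and Notch genes tested, beside 3.62% of all genes tested. Calls that ended with 1 library left out were those of Pmaip1 (AmeloD pCMV6 or Control pCMV6, adjusted p up to 0.156, also with no filter), Bcl2l1 (any TGF library, Control pCMV6 N or Control pCMV6.ODAM N, adjusted p up to 0.251, also with a pseudocount of 0.5, a pseudocount of 4, no filter, TMM scaling, equal medians, edgeR, DESeq2 and no plasmid term), Smo (AmeloD pCMV6, Control pCMV6.ODAM or Control pCMV6, adjusted p up to 0.173, also with no filter), Wnt7b (AmeloD pCMV6.ODAM or Control pCMV6, adjusted p up to 0.173, also with no filter) and Notch1 (any TGF library, Control pCMV6 N or Control pCMV6.ODAM N, adjusted p up to 0.296, also with no filter and DESeq2).

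Of 29 tested genes of DNA replication 2 (6.90%) were lower, beside 1.58% of all genes tested, and 0 higher. Of their differences 22 were below 0, where 56.2% of all genes tested lay above 0 (median -0.27). Hells, a chromatin remodeller, was at 43.0 and 37.5 CPM in AmeloD and 60.5 and 61.9 CPM in Control, a difference of -0.60 ± 0.17 (adjusted p = 0.0278), and the ligase Lig1 was at 3.42 and 2.56 CPM in AmeloD and 6.41 and 6.04 CPM in Control, a difference of -0.87 ± 0.24 (adjusted p = 0.0275). Pcna differed by -0.69 and Mcm3 by -0.70, neither past the test. Of 30 tested mitosis genes 3 were lower and 0 higher, and 27 differences were below 0 (median -0.35). The pairs differed, with a median of -0.16 in the pCMV6 pair and -0.66 in the pCMV6.ODAM pair. Prc1, which bundles the microtubules of the spindle midzone, was at 8.32 and 5.56 CPM in AmeloD and 15.98 and 12.3 CPM in Control, a difference of -0.95 ± 0.21 (adjusted p = 0.00549). Stmn1, a microtubule destabiliser, was at 2.22 and 2.19 CPM in AmeloD and 5.51 and 5.72 CPM in Control and differed by -1.04 ± 0.27 (adjusted p = 0.0158), and Mki67, the gene of the Ki-67 antigen, was at 8.87 and 4.61 CPM in AmeloD and 11.7 and 12.7 CPM in Control, a difference of -0.82 ± 0.22 (adjusted p = 0.0228). Replication genes called lower numbered 0 without AmeloD pCMV6.ODAM, Control pCMV6.ODAM or Control pCMV6. Without AmeloD pCMV6.ODAM 0 mitosis genes were called, without Control pCMV6 1 was and without AmeloD pCMV6 6 were. Calls ended on leaving out 1 library for Hells (AmeloD pCMV6.ODAM, Control pCMV6.ODAM, Control pCMV6, Control pCMV6 N or Control pCMV6.ODAM N, adjusted p up to 0.428, also with no filter), Lig1 (any TGF library or Control pCMV6 N, adjusted p up to 0.247, also with no filter), Prc1 (AmeloD pCMV6.ODAM or Control pCMV6, adjusted p up to 0.183, also with no filter), Stmn1 (AmeloD pCMV6.ODAM or Control pCMV6, adjusted p up to 0.344, also with no filter) and Mki67 (AmeloD pCMV6.ODAM, Control pCMV6.ODAM, Control pCMV6 N or Control pCMV6.ODAM N, adjusted p up to 0.479, also with no filter and no plasmid term). Of 16 tested genes of cholesterol synthesis 1 (6.25%) was lower, beside 1.58% of all genes tested. It was the demethylase gene Cyp51, at 4.34 and 4.02 CPM in AmeloD and 9.23 and 9.68 CPM in Control, with a difference of -1.01 ± 0.22 (adjusted p = 0.00411), while Sqle differed by -0.49. With 1 library left out the call ended of Cyp51 (AmeloD pCMV6.ODAM or Control pCMV6.ODAM, adjusted p up to 0.0772).

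**Figure D3:**
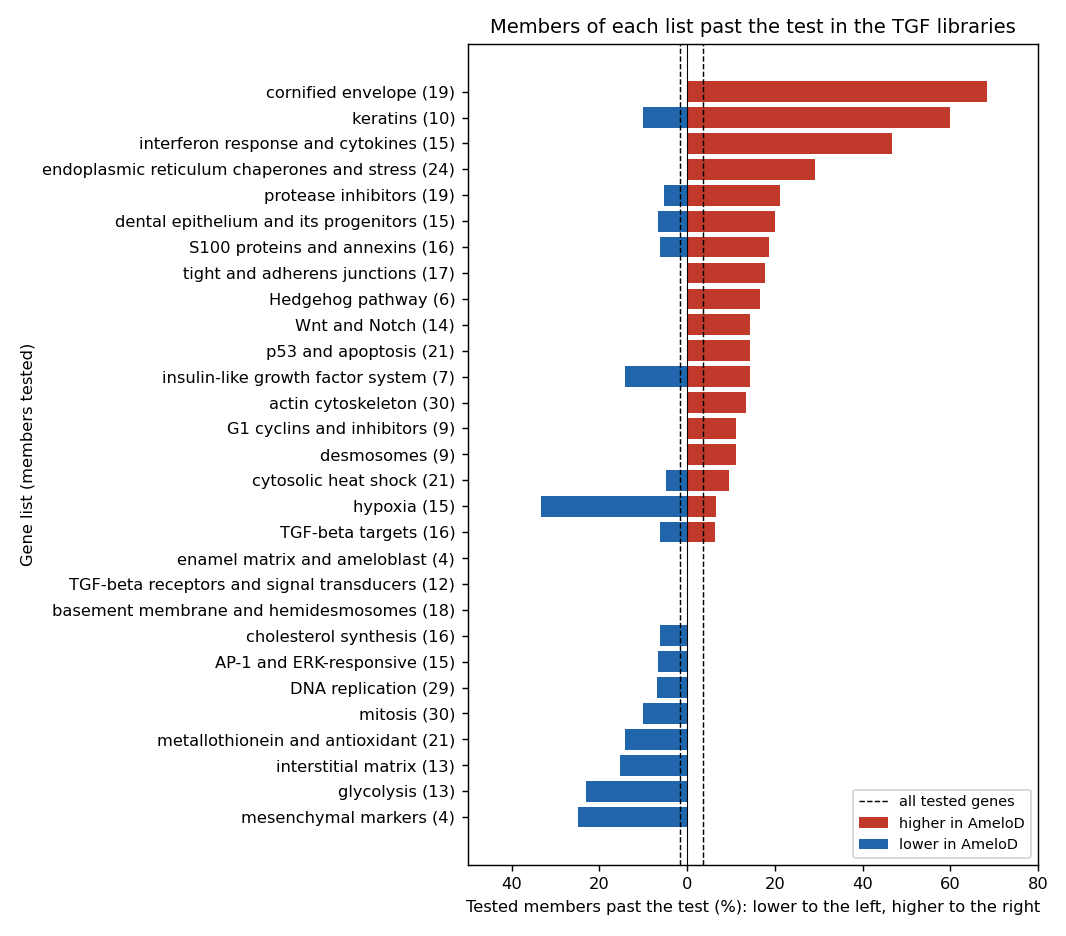
Bars give the percent of each list's tested members that passed the test, higher in AmeloD to the right and lower to the left, for the 29 lists with at least 4 tested genes, and dashed lines give 3.62% and 1.58% of all genes tested. The cornified envelope list reaches 68.4% to the right, and the hypoxia list 33.3% to the left with 6.67% to the right. The lists were chosen with earlier results of these data known and were not tested.

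Several genes were read almost only in 1 genotype. Those named first were chosen by these same reads, at least 50 in the TGF libraries of 1 genotype and at most 3 in those of the other. Their ratios and intervals describe the counts and are no test. The intervals pool the 2 libraries of a genotype and hold counting error only. Nts, which encodes the peptide neurotensin (ENSRNOG00000004179, chromosome 7, 37564533 to 37574423), had 270 reads in the AmeloD TGF libraries and 0 in the Control ones, at least 122-fold higher by a limit of 3 reads over the group. Its levels were 10.9 and 11.1 CPM in AmeloD and 0 and 0 CPM in Control. Rnf130, a RING-finger protein gene, had 59 reads against 2, a ratio of 39.9 with a 95% counting interval of 10.6 to 338. RT1-T24-4, a class I histocompatibility gene with close copies, had 54 reads against 2, a ratio of 36.6 with an interval of 9.64 to 310. In the other direction Prl8a7, a gene of the placental prolactin family (ENSRNOG00000016933, chromosome 17, 37558883 to 37564718), had 3 reads in AmeloD and 1742 in Control, a ratio of 0.00233 with an interval of 0.00048 to 0.00683. It was at 0 and 0.219 CPM in AmeloD and 47.7 and 58.2 CPM in Control. Prl8a3 of the same family had 0 reads against 79, at least 19.4-fold lower, and reads of such copies cannot be told apart with certainty. Outside the rule for named genes, and picked after their values were seen, Ocm, the calcium-binding oncomodulin, was at 0 and 0.512 CPM in AmeloD and 13.3 and 11.1 CPM in Control, and Gsta5, a glutathione transferase with close copies, at 0.370 and 0.732 CPM in AmeloD and 14.8 and 19.4 CPM in Control. Both fell, by 3.42 for Ocm (adjusted p = 7.77e-11) and by 3.54 for Gsta5 (adjusted p = 3.76e-11).

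The same contrast in the N libraries called 439 genes (6.18%), of which 300 (4.22%) were higher and 139 (1.96%) lower in AmeloD. In both contrasts 150 genes were called higher and 58 lower, and 0 in opposite directions. These 208 were 56.4% of the TGF calls and 47.4% of the N calls. Of the 369 TGF calls 360 had the same sign in N and 161 were not called there, which by itself does not show that they differ between the labels. The test of the difference between the 2 contrasts passed for 1 gene, Prl8a7, which is 0.0141% of the genes tested, and 302 genes (4.25%) had an unadjusted p under 0.05. Before adjustment over the genes, the 95% interval of that difference reached 0.76 to either side at the median gene. The adjusted test needed larger differences than that at such a gene. Differences between the labels below 0.76, and also many above it, could therefore go uncalled.

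Prl8a7 differed by -5.60 in TGF and by -3.65 in N, a difference of -1.95 (adjusted p = 0.0261). In N it was at 0 and 0 CPM in AmeloD and 11.8 and 11.3 CPM in Control. The AmeloD libraries were at or under the 3-read limit with both labels, so on this scale the -1.95 follows the level in Control. With edgeR the difference was 1.69 (adjusted p = 0.999971) and with DESeq2 0.78 (adjusted p = 0.999761), and 0 genes passed with either tool, where 351 and 117 had an unadjusted p under 0.05. Some other genes, picked after their values were seen, did not pass. Spink5, a skin protease inhibitor, was at 78.6 and 67.3 CPM in AmeloD and 33.0 and 155 CPM in Control in TGF and at 113 and 218 CPM in AmeloD and 52.2 and 42.7 CPM in Control in N. Its differences were 0.02 and 1.71, and the high Control value in TGF came from the pCMV6.ODAM library. Actb differed by 0.50 in TGF and -0.06 in N, Arl4a by -1.05 and -0.03, Cyp51 by -1.01 and -0.08, and Ccl6 by 3.20 and 2.07. For each of these the test of the difference gave an adjusted p of 0.999. Krtdap (2.52 and 2.45), Cnfn (2.20 and 2.80), Igfbp5 (-2.84 and -2.66) and Mt1 (-2.55 and -2.43) had differences of one direction with both labels. The envelope list had 13 rises in TGF and 15 in N.

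**Figure D4:**
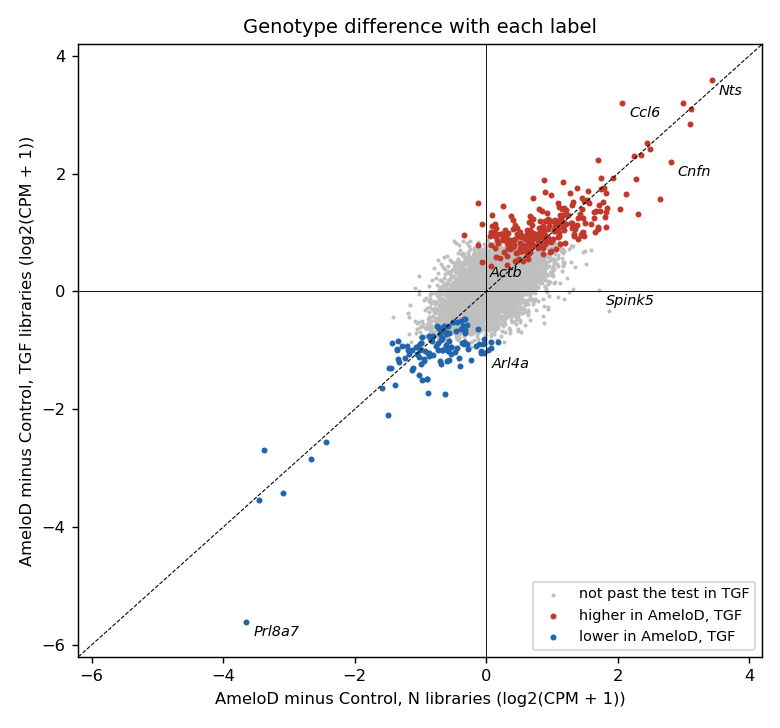
The AmeloD minus Control difference in log2(CPM + 1) of each of the 7103 genes in the N libraries (horizontal) and the TGF libraries (vertical), with a dashed line where they are equal and red and blue for genes that passed in TGF. Most called genes lie on the same side of 0 on both axes, Prl8a7 lies below the line, and Spink5 lies near 0 in TGF and at 1.71 in N.

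The genotype difference also varied with the place of a gene in the genome, which the choice of genes did not use. On chromosome 9 the median of the 297 tested genes was -0.16, with -0.09 and -0.21 in the 2 TGF pairs and -0.18 and -0.12 in the 2 N pairs. Its 20 called genes were 6.73% of those tested there, beside 5.19% of all genes tested. Of the 20 called genes 17 were lower, among them Igfbp5, Col3a1, Col5a2, Serpine2 and Hspe1, where falls were 1.58% of all genes tested. The 3 that were higher were Crisp3, Idh1 and Ccl20. Over the 6304 genes outside the regions named here the median was 0.05. On the last 60 Mb of chromosome 10 (from 60 to 120 Mb in mRatBN7.2) the 354 tested genes had a median of 0.25, between 0.24 and 0.27 in the 4 pairs, and 31 rises and 4 falls. In that stretch 9.89% of the genes tested were called. Krt13, Krt16, Krt17, Ccl6, Timp2 and Actg1 lie there. On the first 20 Mb of chromosome 17 the 67 tested genes had a median of 0.42, with 0.45 and 0.43 in the TGF pairs and 0.33 and 0.44 in the N pairs, and 83.6% of them lay above 0. The 7 called genes, 10.4% of the 67, were all higher, Hnrnpk (0.80), Dbn1 (0.97), Gadd45g (0.94) and Naa35 (0.67) among them. On chromosome 16 beyond 40 Mb the 81 tested genes had a median of -0.22, and 76.5% lay below 0. There 1 gene was called higher and 3 lower, which is 4.94% called beside 5.19% of all genes tested. Among the 109 other windows of 20 Mb with at least 20 tested genes the medians ran from -0.22 to 0.15, the lowest being the second window of chromosome 1. The medians of chromosome 9 and of the chromosome 16 stretch lay within this range. Of the genes named here for their place alone, leaving out 1 library ended the calls of Crisp3 (any TGF library, adjusted p up to 0.139, also with no filter), Hnrnpk (AmeloD pCMV6.ODAM, Control pCMV6.ODAM or Control pCMV6, adjusted p up to 0.593, also with no filter and no plasmid term), Dbn1 (AmeloD pCMV6.ODAM, Control pCMV6.ODAM, Control pCMV6, Control pCMV6 N or Control pCMV6.ODAM N, adjusted p up to 0.410, also with no filter), Gadd45g (AmeloD pCMV6.ODAM, Control pCMV6.ODAM, Control pCMV6, Control pCMV6 N or Control pCMV6.ODAM N, adjusted p up to 0.522, also with no filter, DESeq2 and no plasmid term) and Naa35 (AmeloD pCMV6.ODAM, Control pCMV6.ODAM or Control pCMV6, adjusted p up to 0.428, also with a pseudocount of 0.5, no filter, equal medians, edgeR, DESeq2 and no plasmid term). These regions were singled out after the values were seen and no test was made of them.

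**Figure D5:**
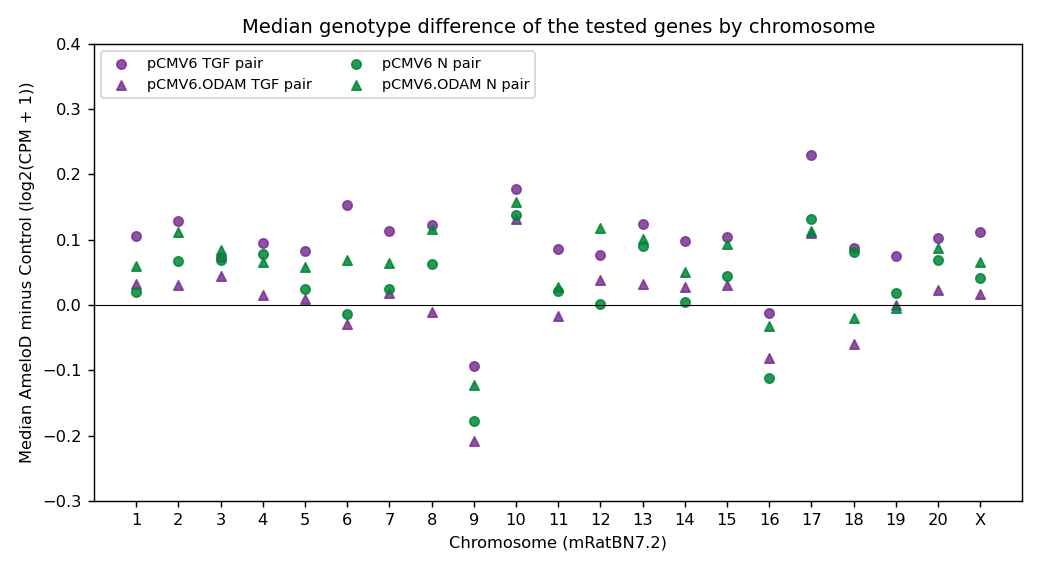
The median AmeloD minus Control difference in log2(CPM + 1) of the tested genes of each chromosome, with purple for the 2 TGF pairs, green for the 2 N pairs, circles for pCMV6 and triangles for pCMV6.ODAM. All 4 medians of chromosome 9 lie below 0, and all 4 of chromosome 10 lie above 0.1.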

How the data were processed

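Per gene and library, the authors deposited CPM values, scaled to totals of which the table's rows hold 15.6% to 17.5% over the 8 libraries. Per the labels' protocols, 3'-end libraries of total RNA were sequenced as paired ends, trimmed, mapped by STAR on the mRatBN7.2 build and assigned to genes by featureCounts, at versions 2.7.10a and 2.0.1 per the submitters' processing notes. Strand, multi-mapping and molecular identifier settings are not stated by the labels.

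Genotypes were compared by limma 3.58.1 (R 4.3.3), fitted to log2(CPM + 1) with the eBayes trend, 4 groups (genotype by label) and plasmid over all 8 libraries, 3 residual degrees of freedom, two-sided, with Benjamini-Hochberg adjustment over 7103 genes and a threshold of 0.05. Of the deposited values 100% gave whole reads at a tolerance of 0.01, and edgeR 4.0.16 and DESeq2 1.42.0 were run on those reads. The step was tested on simulated data. Of 840 listed symbols in 32 lists 819 were matched, and 453 of these genes were tested. Rows sharing a symbol numbered 544. Members and lists were chosen with earlier results of these data known. Named were Ascl5 and Odam, the 12 largest rises and falls at a mean of 10 CPM with one sign in both pairs, up to 4 called members a list by adjusted p (or the 2 highest where none passed), up to 6 genes each way of the label difference at a mean of 5 CPM, and up to 6 near on-off genes each way (at least 50 reads against at most 3). Other genes given were chosen after their values were seen, and some listed genes are not reported here.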

Additional observations from a re-analysis of the deposited data

Results flagged for a closer look

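Prl8a7 is given here because it passed limma's test of whether the genotype difference differed between the labels. The difference was -5.60 in the TGF libraries and -3.65 in the N libraries, and the test of the difference between them gave -1.95 (limma, adjusted p = 0.0261). The call was not stable: edgeR gave 1.69 and DESeq2 0.78, with adjusted p values of 0.999971 and 0.999761, and with a pseudocount of 0.5 the adjusted p of limma was 0.581. With AmeloD at 3 reads or fewer under each label, the value on the log2(CPM + 1) scale follows the Control level and does not show a genotype effect that differs between the labels. Both AmeloD libraries lay below both Control libraries with either label. AmeloD was at 0 and 0.219 CPM with TGF and at 0 in both N libraries, and Control was at 47.7 and 58.2 CPM with TGF and at 11.8 and 11.3 CPM with N.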

How the results depend on the processing

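The TGF calls numbered 123 with no filter on low values (85 higher, 38 lower, over 17287 genes) and 224 with DESeq2 (124 higher, 100 lower). At 1 CPM in all 4 TGF libraries 171 genes were higher and 89 lower. Falls numbered 175 with TMM scaling (245 rises) and 181 with equal medians (238 rises). With 1 library left out the TGF calls ran from 143 to 400, with 85 to 273 higher and 48 to 127 lower.

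The N calls numbered 160 with no filter (115 higher, 45 lower) and 243 with DESeq2 (149 higher), and falls 230 with TMM scaling and 217 with equal medians. With 1 library left out they ran from 97 to 530, with 67 to 349 higher and 27 to 181 lower. The label difference called 0 genes with a pseudocount of 0.5 (298 at an unadjusted p under 0.05), with 1 CPM in all 4 TGF libraries (225), with no filter (699), with edgeR (351) and with DESeq2 (117), and 0 to 5 genes with 1 library left out (0 to 3 higher, 0 to 2 lower).

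Of the 80 genes past the test that the naming rule gave, 35 stayed past it with every 1 library left out and 34 under every setting run. With 1 library left out directions turned for Itgb1 (-0.153 to 0.0123), Inhba (-0.195 to 0.456), Fam83h (-0.023 to 0.482) and Egfl7 (-0.105 to 0.404), none past the test. Leaving out a library gives a group with a lone one, which is assumed to vary like the other groups. With all libraries, the label difference of Prl8a7 turned with the tool (1.69 with edgeR, 0.78 with DESeq2). The fit of the 4 TGF libraries alone gives no label difference. The labels give no replicate numbers. Libraries were paired by plasmid, a term of the main test, and without that term the TGF calls numbered 320 (224 higher, 96 lower). The cause of these shifts was not tested.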
